A study of Apocynum venetum with 18 samples.

Results

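The comparison of 48 h with 6 h set the late state of salt-treated leaves directly against the early one, in 6 of the 18 libraries of a time course of Apocynum venetum leaves. Apocynum venetum is a perennial dogbane of saline ground that is grown for bast fibre and for its leaves. The members were the 3 libraries labelled 48 h and the 3 labelled 6 h, chosen by their labels alone, and all features that passed the filter on low counts in these 6 libraries were tested. Every library of both groups is labelled as leaf tissue of wild plants, which the labels call wild P. apocinae, kept in nutrient solution with 300 mmol/L NaCl. The remaining 12 libraries were labelled 0 h, 2 h, 12 h and 24 h, with 3 at each time and the same salt label. Plant age is not given, no library is labelled as unsalted, and nothing ties a library to a plant of its own, so a p-value here reflects how libraries of a time vary, which may be technical.

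Salt acts on a shoot in a rapid osmotic phase, in which water uptake drops, abscisic acid accumulates and stomata close, and in a slower ionic phase, in which sodium and chloride build up in leaf cells. Tolerant plants are known to limit that build-up by exporting sodium at the plasma membrane, by moving it into the vacuole and by accumulating compatible solutes. The comparison asked how far leaf RNA of the later state differed from that of the earlier one. If the labelled hours were kept, 48 h and 6 h also differ in hour of day, and hour of day and time in salt cannot be told apart in this comparison.

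Each feature was an assembled transcript named by a Trinity ID, and several features can belong to 1 gene. The names in the annotation columns were not used, so the features are described by level, length, direction, time and the final number of the ID, and neither the tissue label nor any pathway could be checked by marker genes. No sequences were used here. Total estimated counts per library lay between 23588659 and 24731213 for 48 h and between 21120787 and 22748646 for 6 h. The Spearman correlation of log2 CPM, the counts scaled to library size, across features was 0.923 to 0.949 among the 48 h libraries and 0.906 to 0.951 among the 6 h libraries, against 0.742 to 0.838 between the groups. The first principal component held 66.1% of the variance among the 6 libraries and separated the groups, with scores of 123.4 or more at 48 h and -116.1 or less at 6 h. The library labelled 6 h replicate 1 stood apart on the second component, which held 12.2% of the variance, at -124.8, against 68.3 or more in the other 6 h libraries.

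A large part of the measured leaf transcripts differed between the late and the early state, in both directions. Of 53545 features 38057 were tested, and edgeR's quasi-likelihood test called 10625 of them (27.9%). A call needed a log2 change of 1 or more in size and a p under 0.05 after Benjamini-Hochberg adjustment. Higher calls at 48 h than at 6 h numbered 4751 (12.5%), and lower calls 5874 (15.4%). Rises had a median log2 change of 2.08 and falls of -2.17. Large differences were present in each direction: 663 rises and 641 falls had a log2 change of 4 or more in size. The median SE of the log2 change was 0.401 among called features and 0.486 among the others.

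Most called features separated the groups completely. Every 48 h library lay above every 6 h library in 4717 of the 4751 rises and below every 6 h library in 5833 of the 5874 falls. Among all features tested the same held for 24.6% upward and 27.3% downward. The calls were made on these same values, so the separation among called features is largely built in. Of the 25432 features with an adjusted p of 0.05 or more, 6377 (25.1%) had a log2 change of 1 or more in size, so these 6 libraries do not show that the features left uncalled were equal at both times.

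**Figure D1:**
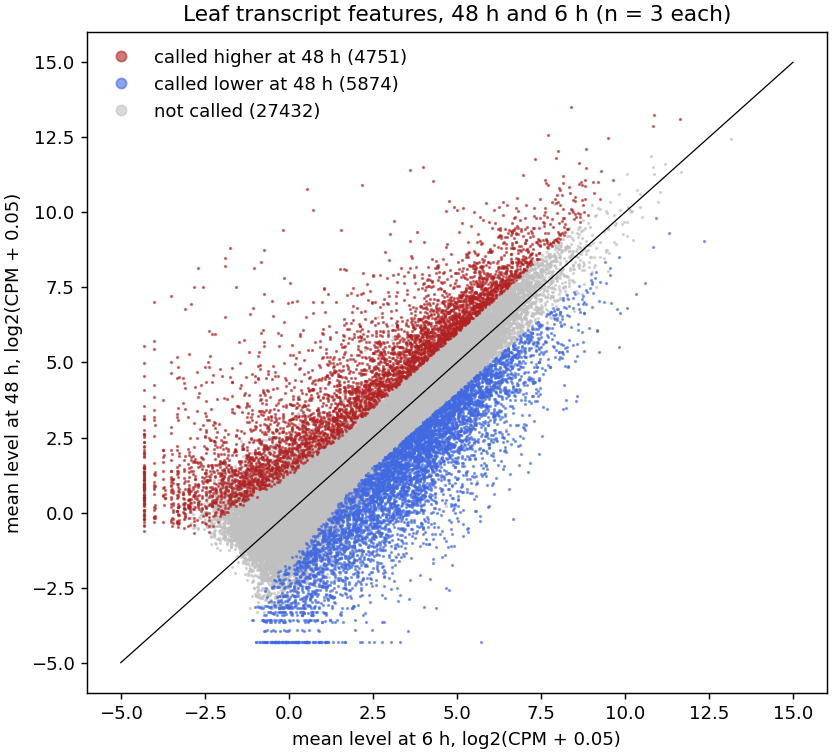
Mean level of each tested feature at 48 h (vertical axis) and at 6 h (horizontal axis), as log2(CPM + 0.05), with the line of equal levels. Red points are the 4751 features called higher at 48 h, blue points the 5874 called lower, and grey points the 27432 not called; called features lie on both sides of the line over the whole range of levels.

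The balance of directions depended on how the libraries were scaled. With TMM, the scaling used throughout, the median log2 change of all tested features was -0.05, and the scaling factors lay between 0.811 and 0.913 in the 48 h libraries and between 1.161 and 1.176 in the 6 h libraries. With total counts alone the median moved to -0.49, and 2953 features were called higher and 8910 lower. Calls, CPM and log2 changes below are relative to the TMM scale unless stated otherwise. Shares of counts and numbers of features with a given count use rounded counts without TMM.

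Complete absence of a transcript in one of the states was rare among well expressed features. Of the rises 97 had no count at 6 h, and of the falls 116 had no count at 48 h. Only 3 features stood at 10 CPM or more in each 48 h library with no count at 6 h. They were 788 to 1622 nucleotides long and at least 439-fold to at least 1200-fold higher at 48 h, by a floor of 3 counts over the 6 h group. A single feature, of 1710 nucleotides, stood at 10 CPM or more in each 6 h library and without a count at 48 h. With the floor set at 3 counts over the 48 h group, this feature was at least 1100-fold lower at 48 h. The floors cover counting error only.

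TRINITY_DN11863_c0_g1_i1_8, of 1216 nucleotides, had the largest rise among the 2658 features that met the rule for naming a rise. It stood at 71.7, 143 and 230 CPM in the 48 h libraries, against 0.038, 0.0409 and 0.038 CPM in the 6 h libraries, and each 6 h value stands for 1 count. All 48 h libraries lay far above all 6 h libraries, where the rule for naming required no overlap, and among the 48 h libraries replicate 3 was the highest. The pooled ratio of 48 h to 6 h was 3910, and the 3 counts at 6 h gave it 95% limits of 1340 and 19000 (exact Poisson, counting error only). The fitted log2 change was 11.71 (SE 0.677, adjusted p = 0.00025 by edgeR's quasi-likelihood test). On a scale common to all 18 libraries, used for the named features at the other times, it did not follow the labelled times evenly, with 6.44, 0.0979 and 23.8 CPM in the 0 h libraries and 0, 0.0454 and 10.4 CPM in those of 12 h. It was higher at 24 h than at 2 h (log2 change 7.02, SE 1.38, adjusted p = 0.016 by edgeR's quasi-likelihood test), but its log2 change at 24 h against 0 h was -0.76 (SE 1.38) and did not pass (adjusted p = 0.71). Nor did that at 24 h against 12 h, of 0.78 (SE 1.63, adjusted p = 0.81). The 2 h libraries held 0, 3 and 0 counts of this feature and the 24 h libraries 55, 236 and 32. The size of the change from 2 h therefore rests on counts near the floor.

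TRINITY_DN11736_c0_g1_i1_8, of 846 nucleotides, had the next largest rise. It stood at 118, 149 and 279 CPM in the 48 h libraries, against 0.038, 0.164 and 0.0759 CPM in the 6 h libraries, which held 7 counts in all. The fitted log2 change was 10.88 (SE 0.597, adjusted p = 0.00025 by edgeR's quasi-likelihood test). Its uneven levels fell in the same libraries as those of the feature above: 26.7, 4.06 and 77.6 CPM at 0 h, and 0.136, 0.182 and 36.5 CPM at 12 h. At 24 h it stood at 62.0, 102 and 5.84 CPM, so replicate 3 lay below the other libraries of that time. At 24 h against 2 h the log2 change was 5.40 (SE 1.44, adjusted p = 0.041 by edgeR's quasi-likelihood test). By the same test it was 2.15 at 24 h against 12 h (SE 1.68, adjusted p = 0.47) and 0.59 at 24 h against 0 h (SE 1.11, adjusted p = 0.72), and neither passed.

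TRINITY_DN8297_c1_g1_i1_5, of 1632 nucleotides, had the largest fall among the 2670 features that met the rule for naming a fall. It stood at 0.357, 1.15 and 0.933 CPM in the 48 h libraries, against 122, 65.6 and 117 CPM in the 6 h libraries. The groups did not overlap, as the rule for naming required, and replicate 2 was the lowest 6 h library. The fitted log2 change was -6.95 (SE 0.478, adjusted p = 0.00041 by edgeR's quasi-likelihood test). Its mean was 30.6 CPM ± 36.9 (SD, n = 3) at 0 h and 29.0 ± 9.61 at 2 h. Later means were 70.1 ± 41.8 in the 12 h libraries and 4.81 ± 3.24 in those of 24 h. It was lower at 24 h than at 12 h (log2 change -3.88, SE 0.696, adjusted p = 0.020 by edgeR's quasi-likelihood test) and than at 2 h (-2.61, SE 0.619, adjusted p = 0.028). The difference at 24 h against 0 h was -2.69 (SE 1.04) and did not pass (adjusted p = 0.095).

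TRINITY_DN2945_c0_g1_i1_2, of 1894 nucleotides, had the next largest fall. It stood at 0.204, 0.05 and 0.489 CPM in the 48 h libraries, against 27.1, 27.1 and 33.3 CPM in the 6 h libraries, a difference far beyond the narrow spread at 6 h. The fitted log2 change was -6.81 (SE 0.536, adjusted p = 0.00051 by edgeR's quasi-likelihood test). Its mean was 14.5 CPM ± 3.15 (SD, n = 3) at 0 h and 10.1 ± 4.75 at 2 h. Later means were 9.68 ± 3.23 in the 12 h libraries and 2.26 ± 1.61 in those of 24 h, so the mean at 6 h was the highest of the course. The 6 h level had entered the choice of this feature, which favours such a peak. EdgeR's quasi-likelihood test called the feature lower at 24 h than at 0 h (log2 change -2.70, SE 0.643, adjusted p = 0.022). It did not call it at 24 h against 2 h (-2.17, SE 0.699, adjusted p = 0.070) or against 12 h (-2.10, SE 0.640, adjusted p = 0.084). Each of these 4 features kept its direction and its call under all 16 alternatives that gave it a value, with adjusted p up to 0.0050.

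**Figure D2:**
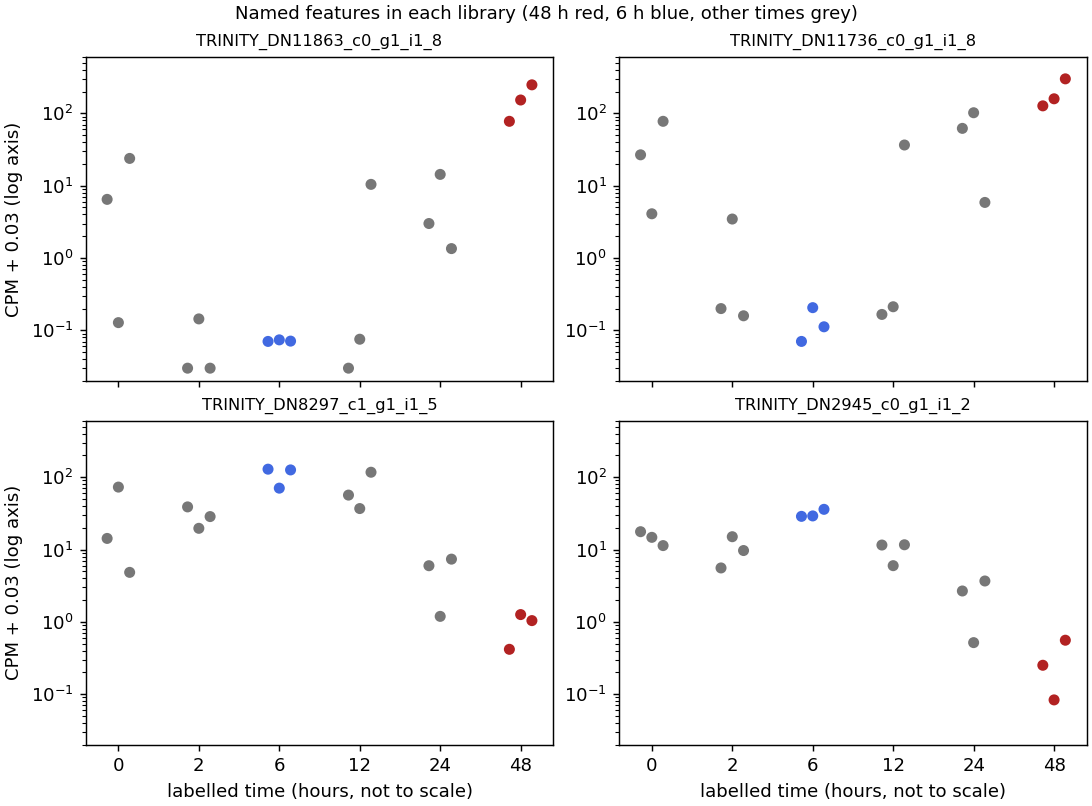
CPM + 0.03 on a log axis in each of the 18 libraries for the 4 named features, by labelled time in hours, with CPM on a scale common to all libraries. The 48 h libraries (red) lie above the 6 h libraries (blue) in the upper panels and below them in the lower panels; the upper pair share high values in the same 0 h and 12 h libraries.

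The share of counts held by the called features shifted toward the rises. At 48 h the features that rose held 44.8%, 46.1% and 44.4% of the estimated counts of the libraries, against 12.3%, 16.7% and 13.2% at 6 h. The features that fell held 4.24%, 4.07% and 4.90% at 48 h, against 27.6%, 19.2% and 23.5% at 6 h, where replicate 1 was the highest. These shares follow from the calls and are a description. In libraries that the calls did not use, the rises held 16.8% ± 2.73 (SD, n = 3) at 0 h, 17.3% ± 0.985 at 2 h, 20.6% ± 0.850 at 12 h and 34.5% ± 2.30 in the 24 h libraries. The falls held 19.2% ± 2.60 at 0 h, 16.5% ± 1.59 at 2 h, 17.7% ± 1.88 at 12 h and 7.92% ± 0.406 in the 24 h libraries, and the 2 h value was below that of 12 h.

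The most abundant features held a larger share of the counts in the 48 h libraries than in the 6 h libraries. The 100 most abundant features of each library held 18.9%, 18.7% and 18.4% of counts at 48 h, against 13.5%, 13.1% and 12.7% at 6 h. The lowest 48 h library lay above the highest 6 h library, and the exact two-sided permutation test gave p = 0.1, the smallest that 3 libraries against 3 allow. With each library thinned to 21120792 rounded counts, 34561 ± 1010 features had at least 10 counts at 48 h and 36865 ± 655 at 6 h (SD, n = 3 each; exact two-sided permutation p = 0.1). Features with at least 1 count numbered 46924 ± 1160 at 48 h and 47363 ± 1660 at 6 h, and the groups overlapped (exact two-sided permutation p = 0.9).

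The features that dominated the leaf at 48 h were largely other features than those at 6 h. Of the 100 with the highest mean CPM at 48 h, 76 were called higher than at 6 h and 24 were not called. Of these 100, 33 were also among the 100 of highest mean CPM at 6 h. The 67 that were on the 48 h list alone held 11.0% ± 0.457 of counts at 48 h and 1.75% ± 0.382 at 6 h (SD, n = 3 each). Of the 100 with the highest mean CPM at 6 h, 31 were called lower at 48 h, 10 were called higher and 59 were not called, beside 15.4% lower and 12.5% higher among all features tested. The 10 called higher are close to that background, which covers features of every level. Among tested features with a mean over all 18 libraries of at least 100 CPM, 30.7% were called higher and 11.7% lower. The 67 on the 6 h list alone held 2.36% ± 0.109 of counts at 48 h and 6.72% ± 0.453 at 6 h. Each list was picked on the level in its own group, so a difference in its favour is built in.

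Direction also varied with level and length. Among all features tested 12.5% rose and 15.4% fell. Among the 2115 tested features with a mean over all 18 libraries of at least 100 CPM, 649 (30.7%) rose and 247 (11.7%) fell. That mean includes the 48 h and 6 h values that made the calls, so the level classes are not independent of direction. With total counts alone 394 of them were higher and 381 lower. Between 10 and 100 CPM 1869 (15.2%) rose and 2498 (20.3%) fell, with 1117 and 3794 by total counts alone. Between 1 and 10 CPM the rises were 1647 (10.0%) and the falls 2601 (15.9%), with 1015 and 3909 by total counts alone. Under 1 CPM 586 (8.12%) rose and 528 (7.32%) fell, but 427 were higher and 826 lower with total counts alone. By length, the falls were most frequent among features of 1000 to under 2000 nucleotides, where 1216 (12.4%) rose and 2185 (22.4%) fell. Among those of at least 2000 nucleotides 2046 (16.5%) rose and 2214 (17.9%) fell. Those of 500 to under 1000 nucleotides held 899 rises (11.1%) and 1002 falls (12.4%). Of the shortest, those under 500 nucleotides, 590 (7.54%) rose and 473 (6.05%) fell. With total counts alone lower calls were the more frequent in all 4 length classes, with 352 higher and 764 lower among the shortest and 1194 higher and 3378 lower among the longest. The median length was 1734 nucleotides among rises and 1638 among falls, against 1300 among all features tested.

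The final number of the feature ID moved with the direction of the call. The numbers run from 1 to 9, and 12.5% of all features tested rose and 15.4% fell. Of the 4307 tested features ending in 7, 1533 rose (35.6%) and 143 fell (3.32%). Of the 4854 ending in 2, 142 rose (2.93%) and 1506 fell (31.0%). Among features with a mean of at least 1 CPM, 28.1% of those ending in 7 were highest in 48 h replicate 1, against 10.0% of all features, and 18.3% were highest in 48 h replicate 2, against 6.00%. Of those ending in 2, 34.9% were highest in 6 h replicate 1, against 11.7% of all features, and 4.59% in 6 h replicate 2, against 1.77%. For each number the 2 libraries with the largest such excess were picked from these same levels. Some numbers whose 2 libraries belonged to other times also leaned in a direction. Of the 4585 features ending in 6, in excess in 24 h libraries, 862 rose (18.8%) and 232 fell (5.06%), and of the 4946 ending in 1, in excess in 0 h libraries, 239 rose (4.83%) and 1129 fell (22.8%). Features ending in 6 were also highest in 48 h replicate 1 more often, at 13.3% against 10.0% of all features. Those ending in 4 (8.67% rose, 13.6% fell) and in 5 (13.4% rose, 11.1% fell) lay nearer to all features tested. With total counts alone the features ending in 5 or 8 changed sides, with 266 higher and 598 lower for 5 and 469 higher and 556 lower for 8. By that scaling those ending in 6 were nearly even, with 501 higher and 446 lower, and those ending in 1 were 123 higher and 1704 lower. When only the 21085 tested features ending in 1, 4, 5, 6 or 9 were kept, whose 2 libraries belonged to neither 48 h nor 6 h, 2080 rose and 2916 fell. The sources used here do not say what the final number stands for. Whether it marks separate assemblies of pairs of libraries, in which case 1 transcript could be counted under several numbers, was not tested, nor was its part in the calls.

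**Figure D3:**
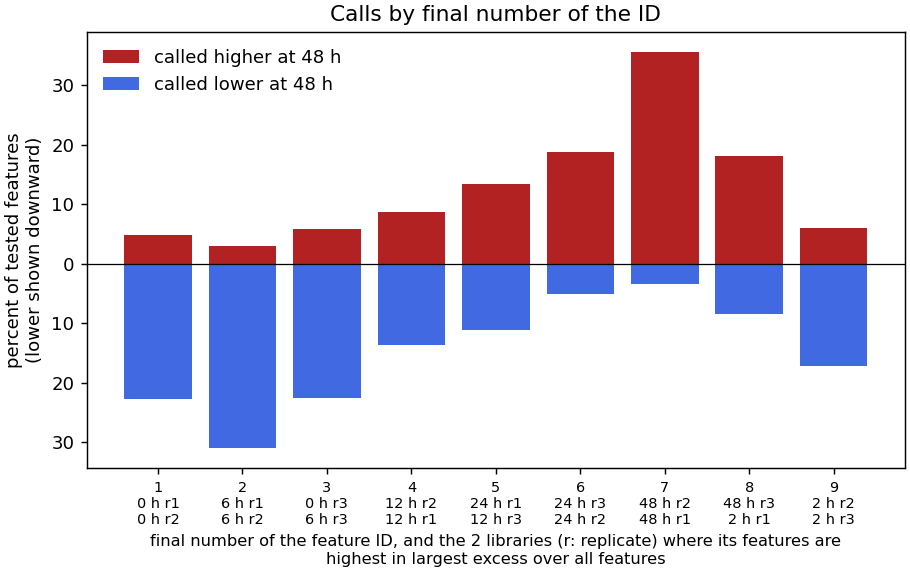
Percent of tested features called higher at 48 h (red, upward) and lower at 48 h (blue, downward), by the final number of the feature ID, with the 2 libraries in which features of that number were highest in largest excess over all features. Rises are most frequent for 7 (35.6%) and falls for 2 (31.0%), the numbers that go with 48 h and with 6 h libraries, and each number holds calls in each direction.

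The called features had moved most of the way from their 6 h level by 24 h and less of it by 12 h. On the log2 CPM scale the median rise above the 6 h level was 0.62 in the 12 h libraries, 1.49 in the 24 h libraries and 2.05 in the 48 h libraries. For the falls the medians were -0.55, -1.57 and -2.08 at the same 3 times. In the median feature this was 30.4% of the way to the 48 h level at 12 h and 74.6% at 24 h among rises. Among falls the values were 26.5% for 12 h and 76.0% for 24 h. At 24 h 739 rises (15.6%) and 1020 falls (17.4%) lay beyond their 48 h level. The ends of this path, 6 h and 48 h, are the values that chose the features.

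Before 6 h the called features were mostly nearer to their 6 h level than to their 48 h level. At 0 h 675 of the 4751 rises (14.2%) were nearer to the 48 h level, and 2303 (48.5%) lay below the 6 h level. Among the 5874 falls 1269 (21.6%) were nearer to the 48 h level at 0 h, and 2182 (37.1%) lay above the 6 h level. At 2 h 599 rises (12.6%) and 1578 falls (26.9%) were nearer to the 48 h level. The median of the falls relative to 6 h was -0.29 at 0 h and -0.52 at 2 h, and that of the rises was 0.01 at 0 h and 0.25 at 2 h. The 6 h values had entered the choice of features, which places 6 h toward an end of each range.

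**Figure D4:**
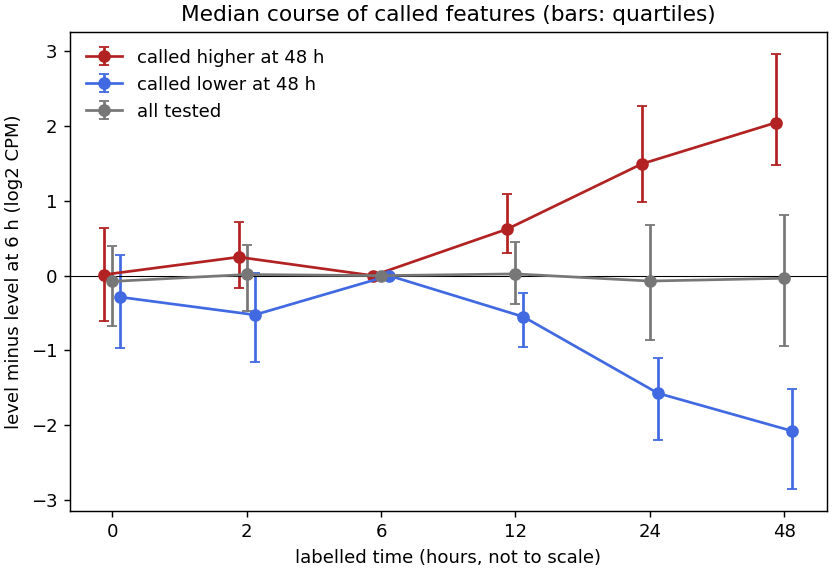
Median level relative to 6 h (log2 CPM, bars give the quartiles across features) at each labelled time for the features called higher at 48 h (red), those called lower (blue) and all tested features (grey). Medians of the called sets diverge after 6 h, reaching 1.49 and -1.57 at 24 h and 2.05 and -2.08 at 48 h, while the median of all tested features stays within 0.08 of the 6 h level.

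The same features were then read in libraries that the comparison had not used. The comparison of 24 h with 2 h also sets a later against an earlier time and shares no library with that of 48 h and 6 h. By edgeR's quasi-likelihood test on these 6 libraries, 6035 of 38620 features (15.6%) were called, of which 3026 (7.84% of those tested) were higher and 3009 (7.79%) lower at 24 h. Of the features higher at 48 h than at 6 h, 4455 were tested here, and 1761 of these (39.5%) were called higher and 11 lower. Of those lower at 48 h, 5572 were tested here, and 1797 (32.3%) were called lower and 38 higher. Among all features tested in both comparisons 7.99% were called higher and 7.92% lower. The median log2 change from 2 h was 1.20 for the rises, of which 91.4% were positive, and -1.06 for the falls, of which 86.8% were negative, against -0.09 for all. Across the 35927 features tested in both, Pearson's r of the log2 changes was 0.628, as a description of features that are not independent.

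The shared calls were 58.2% of those higher and 59.7% of those lower at 24 h than at 2 h, and 37.1% and 30.6% of the corresponding lists at 48 h. These counts moved with single libraries. Without 2 h replicate 3 the rises called higher here numbered 704 and the falls called lower 775. All calls at 24 h against 2 h numbered 2933 and 1977 when the 2 h replicates 1 and 3 were left out in turn, and 2436 and 3280 for the 24 h replicates 1 and 2. The medians moved less, from 1.10 to 1.32 for the rises and from -1.20 to -0.97 for the falls when each library was left out in turn. For every final number of the ID the rises were mostly positive (76.0% to 96.9%) and the falls mostly negative (73.0% to 95.0%) in this comparison. Over all features tested in both, whatever their number, 46.4% were positive and 53.6% negative. The shares over all features of each number were not computed. Features ending in 6 were highest in excess in 24 h libraries and those ending in 9 in 2 h libraries, so the number itself can bear on these shares.

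The comparison of 24 h with 12 h covered the middle of the interval and shares no library with that of 48 h and 6 h. Its 24 h libraries are the same as in the comparison of 24 h with 2 h. EdgeR's quasi-likelihood test called 2591 of 38112 features (6.8%), of which 1281 (3.36% of those tested) were higher and 1310 (3.44%) lower at 24 h. Of the rises at 48 h against 6 h, 945 of 4445 tested (21.3%) were called higher at 24 h than at 12 h. Of the falls, 1095 of 5565 (19.7%) were called lower and 19 higher. The median log2 change was 0.83 for the rises and -0.97 for the falls, against -0.08 for all features tested in both, and 92.5% of the rises were positive and 93.3% of the falls negative. All calls here numbered 1068, 396 and 389 when the 12 h replicates 1, 2 and 3 were left out in turn, and 197 when 24 h replicate 1 was left out. In the last case 107 of the rises were called higher and 71 of the falls lower. With each of the 6 libraries left out the medians were 0.70 to 1.00 for the rises and -1.04 to -0.91 for the falls.

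The comparison of 24 h with 0 h spans 24 h by the labels. The clock times of sampling are not given, and the part of the hour of day in these calls was not tested. EdgeR's quasi-likelihood test called 8952 of 38807 features (23.1%), of which 4682 (12.1% of those tested) were higher and 4270 (11%) lower at 24 h. Of the rises at 48 h against 6 h, 2072 of 4436 tested (46.7%) were called higher at 24 h than at 0 h and 42 lower. Of the falls, 2364 of 5626 (42.0%) were called lower and 65 higher. The median log2 change was 1.35 for the rises, of which 87.3% were positive, and -1.31 for the falls, of which 87.2% were negative, against -0.07 for all features tested in both. All calls here numbered 4938 and 5951 when the 0 h replicates 1 and 3 were left out in turn, and 4663 and 5626 for the 24 h replicates 1 and 2. Without 0 h replicate 1 the rises called higher numbered 1317, and without 24 h replicate 1 the falls called lower numbered 1234. With each library left out the medians were 1.26 to 1.56 for the rises and -1.37 to -1.15 for the falls. The 24 h libraries enter all 3 of these comparisons, which are therefore not independent of each other.

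**Figure D5:**
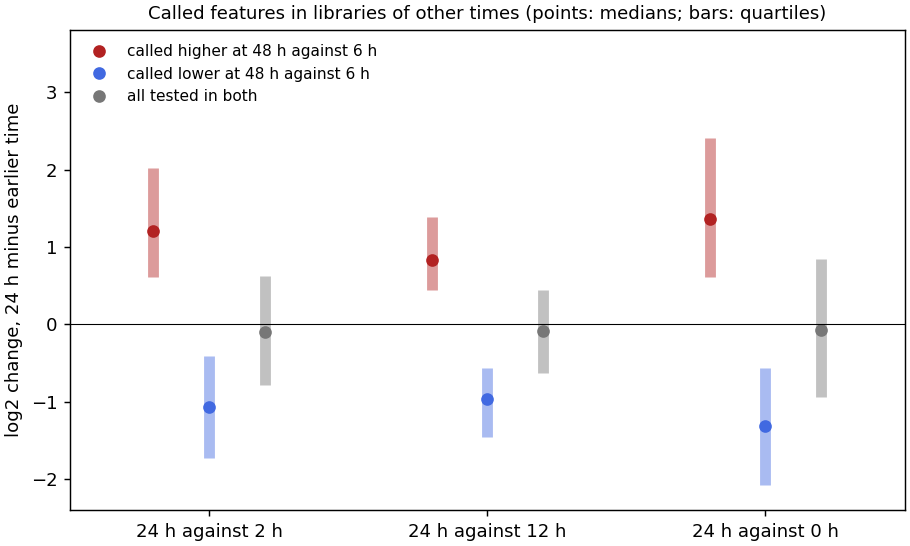
Log2 change in 3 comparisons that share no library with 48 h against 6 h (24 h minus 2 h, minus 12 h and minus 0 h) for features called higher (red) and lower (blue) at 48 h against 6 h and for all features tested in both (grey); points are medians and bars are quartiles across features. The red medians are 0.83 to 1.35 and the blue medians -1.31 to -0.97, and the grey medians -0.09 to -0.07.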

How the data were processed

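The deposited tables hold the authors' estimated counts (89.6% of values not whole) and the authors' FPKM values for the same 53545 features, each in 1 table with 1 column per library; 0 per-sample columns were left unused. Feature IDs are those of Trinity transcripts; no source used here states how reads were assembled, aligned or counted. Feature lengths came from count divided by FPKM. The annotation columns were not used, and the files give the IDs no other names.

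Estimated counts were rounded, filtered with filterByExpr and scaled by TMM within the 6 libraries compared, and tested with edgeR 4.0.16 (R 4.3.3). The SE was the size of the log2 change over the square root of F. Levels over all 18 libraries used TMM factors common to them, and log2 CPM a prior count of 2. The fit was tested on simulated counts. Replicate libraries differed beyond sampling noise (chi-square over its degrees of freedom was 21.6 to 91.9). Named features were the 2 largest rises and 2 largest falls that were called, reached 10 CPM in all libraries of the higher group, had 1 count or more in each library of the lower group and no overlap. The members, rules and classes were chosen with earlier results of these data known; the choice by ID number was made after seeing the data. Alternatives included DESeq2 1.42.0 and, for FPKM with a pseudocount of 1 or 0.1 on the log2 scale, limma 3.58.1. Tables were made with Python 3.11.15 and scipy 1.17.1.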

Additional observations from a re-analysis of the deposited data

How the results depend on the processing

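Calls at 48 h against 6 h numbered 10625. They were 5603 (2471 higher, 3132 lower) with at least 10 CPM in 3 libraries, where fewer features were tested, and 5831 (2503 higher, 3328 lower) at an absolute log2 change of at least 2. With total counts alone 2953 were higher and 8910 lower, and with limma on log2(FPKM + 0.1), whose values are not scaled by TMM, 3194 were higher and 9007 lower. Keeping only features whose ID number went with libraries of neither time, a choice made after seeing the data that tests fewer features, gave 4996 (2080 higher, 2916 lower). With log2(FPKM + 1) 3241 were higher and 8470 lower. Leaving out each library gave 7295 to 10596 calls (3329 to 4943 higher, 3966 to 5798 lower), with 10271 without 6 h replicate 1. The DESeq2 test called 12427 and the model of all 18 libraries 11518. The replicate number as a block gave 8459. Same-numbered libraries deviated together at correlations of -0.0781 to 0.0299, and 1 of 3 correlated best with its own number. The labels do not say what a replicate number shares, and 3 libraries at each time are too few to settle it. At 24 h against 12 h the correlations were 0.0334 to 0.187 and 3 of 3 correlated best with their own number, a hint from the data and not from the design. In the other comparisons no same-numbered correlation was above 0.01. There the block gave 3171 calls at 24 h against 2 h, in place of 6035. The DESeq2 test gave 4661 at 24 h against 12 h, in place of 2591. The cause was not tested. Leaving out each library gave 1977 to 6615 calls at 24 h against 2 h, 197 to 3217 at 24 h against 12 h and 4663 to 11848 at 24 h against 0 h. The differences in the share of the 100 most abundant features and in features with at least 10 counts kept their direction under every alternative tried. Without thinning the latter was -1529 (exact two-sided permutation p = 0.2), and the groups overlapped, with 36988 in 48 h replicate 3 and 36789 in 6 h replicate 1. At 1 count or more, with thinning, the difference was -439 (exact two-sided permutation p = 0.9). Summing counts by Trinity gene ID and final number was not run, since each such pair holds 1 feature. Estimated counts limit the precision for low features and for near-identical ones.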

Other observations

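Among features that met the rule for naming, the 100 largest rises had log2 changes of 5.13 to 11.7 and a median level of 119 CPM at 48 h, and the 100 largest falls had absolute log2 changes of 4.33 to 6.95 and a median level of 41.1 CPM at 6 h. Of the 100 largest rises 40 ended in 7 and 26 in 8, beside 1533 and 703 of all 4751 rises. Of the 100 largest falls 26 ended in 2, 17 in 3, 15 in 1, 14 in 4 and 14 in 9, beside 1506, 889, 1129, 491 and 777 of all 5874 falls. The median length was 1675 nucleotides among these rises and 1857 among these falls. These sets were picked on the values given here, so the values are a description.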
